A study of Mus musculus with 8 samples.

Results

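The genes Hspa5, Hsp90b1, Calr, Canx, Pdia3, Pdia4, Pdia6, Xbp1, Atf4 and Ddit3, which serve protein folding in the endoplasmic reticulum (ER) and the unfolded protein response (UPR), were followed by symbol in brown adipose tissue (BAT) of lean and obese mice. They were listed by function: a pair of chaperones, the lectin chaperones, the disulfide isomerases and the transcription factors. All 10 were found among the 31053 genes of the count table, and all 10 passed the filter on low counts, which left 9264 genes to be tested.

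Bulk RNA-seq was run on BAT of 4 wild-type (WT) and 4 db/db mice, all 8 weeks old and labelled with the strain C57BL6/J. The methods name the db/db mice as B6.BKS(D)-Leprdb/J. The paper's list of resources gives a stock number instead, and whether it is the same strain was not settled. Mice of db/db genotype carry a mutation of the leptin receptor gene Lepr in every cell, overeat and become obese. Genotype, food intake and body weight therefore cannot be told apart. The methods name different suppliers for the WT and the db/db mice, whereas the list of resources names the same supplier for both. If the suppliers differed, that cannot be told apart from genotype either. All mice were males on a normal diet and were sampled after a fast. The comparison asked how the transcriptome of BAT differed between the genotypes.

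Libraries held 2374079 to 2615009 counts in WT and 2382722 to 3240074 in db/db, and 3 counts corresponded to 0.902 to 1.33 CPM (counts scaled to library size). Lepr had 0 counts throughout, and the mutated gene therefore gave no check of the labels. A label of the samples names the stromal vascular fraction, the adipose cells left once adipocytes are removed, whereas the adipocyte genes Ucp1 (WT 2248 ± 387 CPM, db/db 1429 ± 457 CPM, SD, n = 4) and Adipoq (1534 ± 239.7 and 1909 ± 185 CPM) were abundant in all libraries. Summed over marker lists, macrophage genes reached 176 to 223 CPM in the WT libraries against 824 to 1460.0 CPM in the db/db libraries (13 of 13 tested higher), fibroblast and matrix genes 674 to 829 against 1327 to 2840.0 (9 of 10 higher), skeletal muscle genes 479.5 to 1760.0 against 2600.0 to 13150.0 (20 of 20 higher), and endothelial genes 388 to 442 against 279.6 to 334 (3 of 7 lower). Among all genes tested, 15.8% were higher and 11.9% lower in db/db at the same threshold, an adjusted p under 0.05 in edgeR. In bulk tissue, fewer cells of a type and less RNA per cell cannot be told apart. The part of these marker differences in the values below was not tested, and the level of a gene is a mixture over the cells of the tissue.

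Proteins bound for the cell surface or for secretion fold inside the ER with the help of chaperones, and when unfolded proteins build up the sensors ATF6, IRE1 and PERK start the UPR. ATF6 and the spliced form of XBP1 raise the chaperones, while PERK slows translation and favours ATF4, which in turn can raise Ddit3, the gene of CHOP. The response has been studied in fat tissue in obesity. The splicing of Xbp1, the cleavage of ATF6 and the translation of Atf4 are not seen in counts per gene, so the values here are levels of total mRNA.

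The promoters of several chaperones share the ER stress response element (ERSE), in which a CCAAT box and a CCACG box stand a fixed distance apart. In the RefSeq windows on GRCm38.p6, from 250 bases before to 50 after each gene start, CCAAT and CCACG with 9 bases of any kind between them were found on either strand in 39 of 32851 windows (0.119%) and in those of 5 of the 10 genes. The element is known from chaperone promoters, so its presence among the 10 is background and no result of these data. The sites are printed 5′ to 3′ in the direction of the motif, with both boxes in capitals, because these letters are what the windows of these 5 genes have in common.
Hspa5, chr2:34772025-34772043, plus strand: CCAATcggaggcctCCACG
Hsp90b1, chr10:86705638-86705656, minus strand: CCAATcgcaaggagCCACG
Hsp90b1, chr10:86705533-86705551, plus strand: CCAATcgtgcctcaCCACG
Calr, chr8:84847075-84847093, plus strand: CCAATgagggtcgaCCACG
Canx, chr11:50325800-50325818, minus strand: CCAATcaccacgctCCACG
Pdia6, chr12:17266491-17266509, plus strand: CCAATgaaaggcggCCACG

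Counted from the RefSeq start, the sites began 65 bases upstream in Hspa5, 212 and 107 in Hsp90b1, 162 in Calr, 145 in Canx and 98 in Pdia6. In Hspa5 the RefSeq start lies downstream of the GENCODE start given below, so its site falls inside the GENCODE gene. Hsp90b1 was the gene of the 10 with a pair of them. The windows of Pdia3, Pdia4, Xbp1, Atf4 and Ddit3 held no match to these letters. The related letters of ERSE-II (ATTGG, 1 base of any kind and the same CCACG box, 12 windows or 0.0365%), of the UPRE (TGACGTGG, 222 windows or 0.676%) and of the CARE (TGATGNAAT, the composite site of C/EBP and ATF factors, 317 windows or 0.965%) were found in none of the 10. Sites outside these windows were not looked for, so a gene without a match may hold one further upstream. A match is a description of the sequence and says nothing of binding in these samples.

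Across the 10 genes, none differed between db/db and WT at an adjusted p under 0.05 in edgeR's quasi-likelihood F test with Benjamini-Hochberg adjustment over all genes tested, against 27.7% of the 9264 genes (15.8% higher and 11.9% lower in db/db, and 31.3% of those with a mean of at least 10 CPM). DESeq2 also called none of them, against 27.3% of all genes, and limma-voom called 1 (Calr, adjusted p = 0.0479) against 27.4%. Unadjusted p was under 0.05 for 2 of the 10, Calr and Atf4, and for 38.9% of all genes. The fitted difference was above 0 for 7 and below 0 for 3. Its median was 0.14 on the log2 scale and the median of its size 0.19, beside 0.01 and 0.38 over all genes. The 10 genes together took a share of the counts of 0.116% ± 0.00679 (WT) and 0.117% ± 0.0126 (db/db, SD, n = 4), and the groups overlapped.

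**Figure D1:**
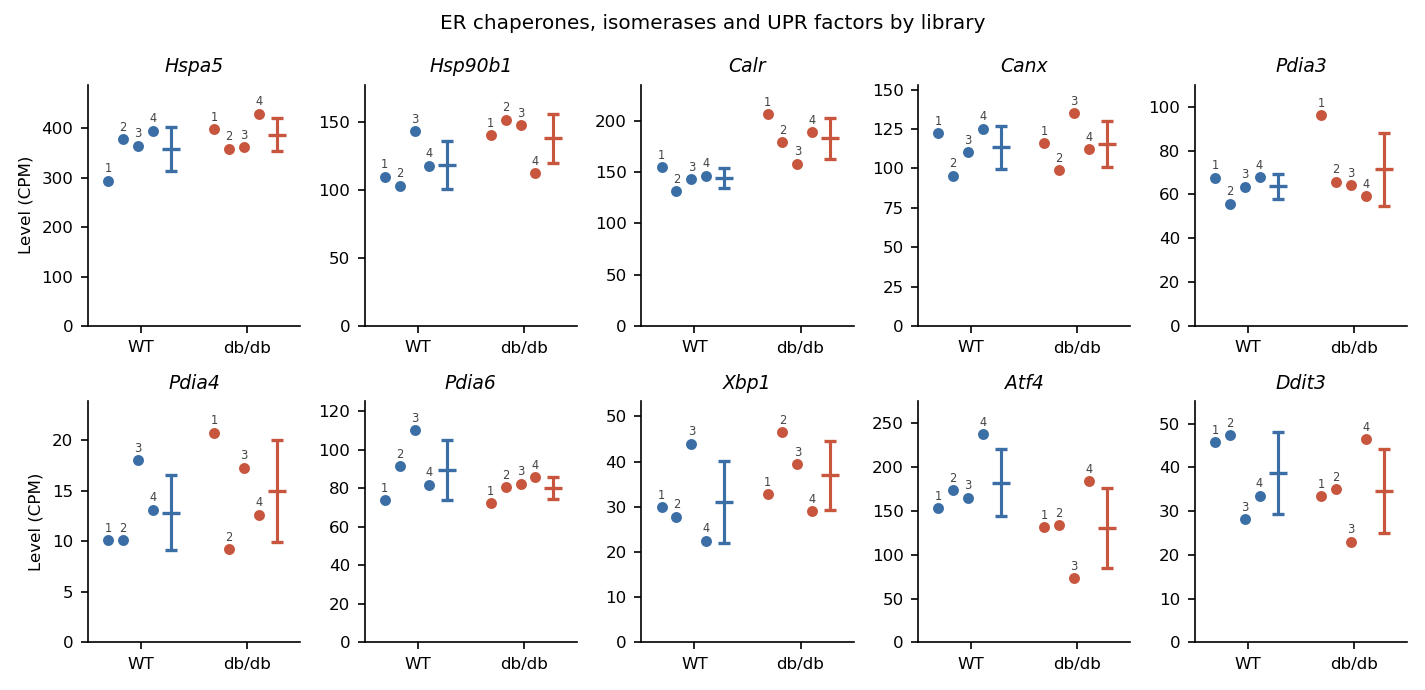
Level of each of the 10 genes in each library, in CPM on a linear axis from 0. Numbered points are libraries (WT blue, db/db red), and the bar beside each group is its mean ± SD (n = 4). Calr is the gene whose db/db points, from 158 to 206 CPM, all lie above its WT points, and in Atf4 a single db/db point lies among them.

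Hspa5 (ENSMUSG00000026864, chr2:34771970-34777547 on GRCm38, from GENCODE M21) encodes BiP, the HSP70 chaperone of the ER, and was the most abundant of the 10 per length of transcript. It was at 294, 378, 365 and 396 CPM in WT replicates 1 to 4 and at 399, 359, 361 and 429.7 CPM in db/db replicates 1 to 4. The groups overlapped, with WT replicate 1 lowest of all 8 libraries and db/db replicate 4 highest. The fitted difference was 0.11 on the log2 scale (SE 0.13, 95% interval -0.17 to 0.39, adjusted p = 0.572 in edgeR). On a linear scale the interval ran from 0.892-fold to 1.31-fold. Without WT replicate 1 the difference was 0.0083.

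Hsp90b1 (ENSMUSG00000020048, chr10:86690209-86705509) encodes GRP94, the HSP90 chaperone of the ER. Its level was 109.7, 103, 143 and 118 CPM in WT replicates 1 to 4 and 139.9, 151, 148 and 112 CPM in db/db replicates 1 to 4. In Hsp90b1, 3 db/db libraries were above 3 of the WT libraries, but WT replicate 3 was among the high values and db/db replicate 4 among the low ones. The difference was 0.22 on the log2 scale (SE 0.14, interval -0.09 to 0.52, adjusted p = 0.286 in edgeR) and 0.14 without WT replicate 2. Exons of Hsp90b1 overlap those of 1810014B01Rik, Gm15344 and Gm25745, and its counts are uncertain to that degree, since it is not stated whether strand was used.

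Calr (ENSMUSG00000003814, chr8:84841850-84846934) encodes calreticulin, a soluble lectin chaperone that also stores calcium in the ER, and it had the greatest fitted increase of the 10. Its level was 155, 131, 143 and 146 CPM in WT replicates 1 to 4 and 206, 179, 158 and 189 CPM in db/db replicates 1 to 4. All db/db libraries were above all WT libraries, by a narrow gap between WT replicate 1 and db/db replicate 3, and groups that do not overlap were found for 28.1% of all genes tested (15.3% above and 12.7% below). The means were 144 ± 9.68 and 183 ± 20.1 CPM (SD, n = 4), a difference of 0.35 on the log2 scale (SE 0.13, interval 0.08 to 0.62), or 1.27-fold. The unadjusted p of 0.0146 became 0.052 after adjustment in edgeR, just outside the threshold, and over the alternatives the adjusted p ran from 0.0263 to 0.526. Without db/db replicate 3, the lowest of its group, it was 0.038, whereas leaving out any other library gave values over the threshold, up to 0.162 without WT replicate 2. The upper end of the range came from the model with the muscle score. The db/db libraries stood in the same order in Calr and in the macrophage marker sum, which was 1460.0, 839, 824 and 1232 CPM in db/db replicates 1 to 4. Replicates 1 and 3 were highest and lowest in the fibroblast and matrix sum too, at 2840.0 and 1327 CPM. The skeletal muscle sum stood in another order, at 13150.0, 3641, 5882 and 2600.0 CPM. In WT, replicate 4 was above replicate 3 in Calr but below it in the macrophage sum (196 and 220 CPM). The part of these cells in the Calr values was not tested.

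Canx (ENSMUSG00000020368, chr11:50293961-50325673) encodes calnexin, the membrane-bound counterpart of calreticulin, and it was the gene with the smallest difference. WT replicates 1 to 4 were at 122, 95.4, 110.1 and 125 CPM and db/db replicates 1 to 4 at 116, 98.9, 135 and 112 CPM. The groups covered nearly the same range, and the difference was 0.03 on the log2 scale (SE 0.14, interval -0.27 to 0.32, adjusted p = 0.918 in edgeR). Whether the soluble and the membrane-bound lectin differed in their change was not tested.

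Pdia3 (ENSMUSG00000027248, chr2:121413775-121438687) encodes ERp57, the isomerase that works with calnexin and calreticulin. Its WT libraries were at 67.6, 55.7, 63.5 and 67.9 CPM and its db/db libraries at 96.3, 65.8, 64.3 and 59.1 CPM. A single library, db/db replicate 1, stood above the rest, and the other 3 lay within the WT range. The difference was 0.17 on the log2 scale (SE 0.16, interval -0.18 to 0.52, adjusted p = 0.487 in edgeR), and without that library it was -0.02. The same library had the highest sums of skeletal muscle (13150.0 CPM), macrophage (1460.0 CPM), fibroblast and matrix (2840.0 CPM) and plasma and B cell markers (89.3 CPM), and their part in the Pdia3 value was not tested. Catsper2, on the opposite strand and at 5 to 21 counts per library, shares exon bases with Pdia3.

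Pdia4 (ENSMUSG00000025823, chr6:47796141-47813430) encodes ERp72, an isomerase with several thioredoxin domains, and was the least abundant of the 10, with 24 to 69 counts per library. Values were 10.1, 10.1, 18 and 13.2 CPM in WT and 20.8, 9.23, 17.3 and 12.7 CPM in db/db. The db/db group held both the highest and the lowest library of all 8. Its interval was accordingly the widest, from -0.39 to 0.82 around 0.21 on the log2 scale (SE 0.29, adjusted p = 0.63 in edgeR). Leaving out db/db replicate 1 took it to -0.0096 and leaving out WT replicate 3 to 0.41. The small RNA gene Mir704 lies within its exons.

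Pdia6 (ENSMUSG00000020571, chr12:17266545-17284770) encodes P5, an isomerase that binds BiP. It was at 74.1, 91.6, 110.1 and 81.9 CPM in WT and at 72.5, 80.5, 82.5 and 85.9 CPM in db/db. The db/db libraries lay close together, with replicate 1 just under the lowest WT library and the other 3 within the wider WT range, and the difference was -0.16 on the log2 scale (SE 0.15, interval -0.46 to 0.15, adjusted p = 0.464 in edgeR). It was -0.06 without WT replicate 3 and -0.26 without WT replicate 1. Atp6v1c2, on the opposite strand and at 2 to 48 counts, shares exon bases with it.

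Xbp1 (ENSMUSG00000020484, chr11:5520659-5525893) encodes the transcription factor that IRE1 activates by splicing its mRNA. WT replicates 1 to 4 were at 29.9, 27.9, 44 and 22.5 CPM and db/db replicates 1 to 4 at 32.8, 46.5, 39.5 and 29 CPM. Both groups spread widely, 1.95-fold from lowest to highest in WT, and they overlapped. The difference was 0.24 on the log2 scale (SE 0.21, interval -0.21 to 0.69, adjusted p = 0.43 in edgeR). It was 0.11 without WT replicate 4 or without db/db replicate 2, and 0.44 without WT replicate 3.

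Atf4 (ENSMUSG00000042406, chr15:80255184-80257541) encodes the main transcription factor of the integrated stress response, and it had the greatest fitted decrease of the 10. Its level was 153, 174, 165 and 238 CPM in WT replicates 1 to 4 and 132, 134, 73.1 and 184 CPM in db/db replicates 1 to 4. In db/db, 3 libraries were below every WT library, replicate 3 by the greatest distance, while db/db replicate 4 lay above 3 of the WT libraries. The means were 182 ± 37.8 and 131 ± 45.4 CPM (SD, n = 4), a difference of -0.48 on the log2 scale (SE 0.21, interval -0.92 to -0.03), or 0.718-fold. The unadjusted p was 0.0371 and the adjusted p in edgeR 0.103, with a range of 0.00632 to 0.523 over the alternatives. Without db/db replicate 4 the adjusted p was 0.0192 and the difference -0.69. Without db/db replicate 3 the difference was -0.29 (adjusted p = 0.263 in edgeR), so the size of the decrease rests much on that library.

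Ddit3 (ENSMUSG00000025408, chr10:127290774-127296288) encodes CHOP, a factor made late in the response and linked to cell death, and ATF4 is one of its activators. It was at 45.7, 47.3, 28.2 and 33.5 CPM in WT and at 33.4, 35, 23.1 and 46.5 CPM in db/db. The groups overlapped over most of their range, and the difference was -0.16 on the log2 scale (SE 0.22, interval -0.62 to 0.30, adjusted p = 0.635 in edgeR). It shrank to -0.02 when db/db replicate 3 was left out and was -0.33 when replicate 4 was. Mars, on the opposite strand and at 90 to 148 counts per library, shares exon bases with Ddit3, and a further Ddit3 entry for its upstream reading frame was at 0 counts in all libraries. In db/db replicate 3, Atf4 and Ddit3 were both the lowest of all 8 libraries, and in db/db replicate 4 both were the highest of their group.

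**Figure D2:**
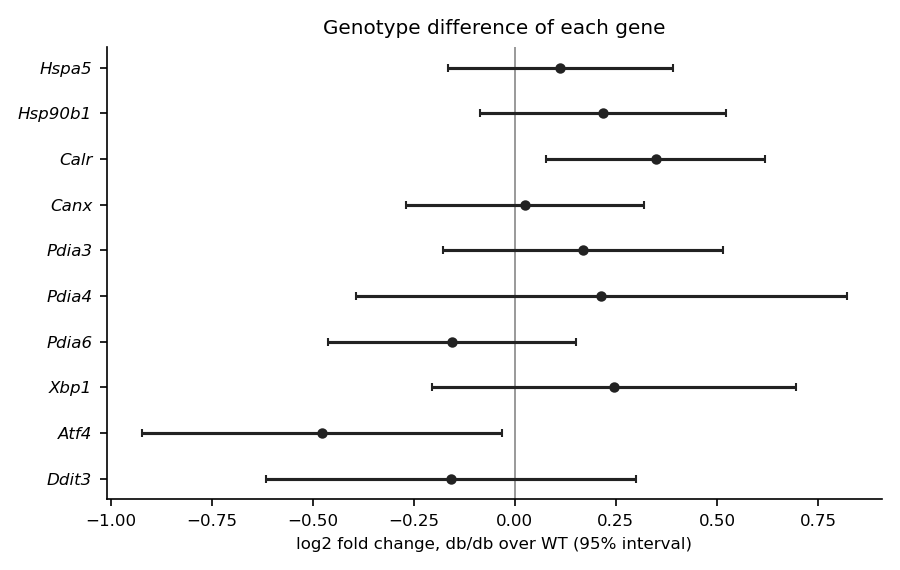
Fitted log2 fold change of each of the 10 genes, db/db over WT, as points with 95% intervals from the edgeR fit. Calr (0.08 to 0.62) and Atf4 (-0.92 to -0.03) are the genes whose unadjusted intervals leave out 0, on opposite sides, and neither passed after adjustment.

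Per kilobase of merged exons, WT means ran from 84.7 CPM in Hspa5 through 77.3 in Atf4, 50.0 in Calr, 29.4 in Hsp90b1, 24.1 in Canx, 23.9 in Pdia6, 22.6 in Ddit3, 20.3 in Pdia3 and 9.56 in Xbp1 to 5.36 in Pdia4. Between neighbours in that order the WT libraries did not overlap after Atf4, after Calr and after Pdia3, and overlapped elsewhere. In db/db Calr (63.6 CPM per kilobase) stood ahead of Atf4 (55.4) and Pdia3 (22.7) ahead of Pdia6 (21.4) and Ddit3 (20.1), with the other genes in the WT order, and the libraries of neighbours did not overlap after Hspa5 (91.6) and after Xbp1 (11.4). These levels assume reads along the whole transcript, and the sources used here do not state whether the libraries count only transcript ends.

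No library was the highest or the lowest of its group in all 10 genes. WT replicate 3 was the highest of its group in Hsp90b1, Pdia4, Pdia6 and Xbp1 and the lowest in Ddit3, whereas WT replicate 4 was the highest in Hspa5, Canx, Pdia3 and Atf4 and the lowest in Xbp1. In db/db, replicate 1 was the highest in Calr, Pdia3 and Pdia4 and replicate 3 the lowest in Calr, Atf4 and Ddit3. Replicate 4 of db/db was the highest in Hspa5, Pdia6, Atf4 and Ddit3 and the lowest in Hsp90b1, Pdia3 and Xbp1. Taken as deviations from the genotype means of log2 CPM over the 8 libraries, Hsp90b1 went with Xbp1 (r = 0.77), Calr with Pdia3 (r = 0.70), Hspa5 with Atf4 (r = 0.64) and Atf4 with Ddit3 (r = 0.57), while Ddit3 went in the opposite direction to Hsp90b1 (r = -0.84) and Pdia4 (r = -0.65). These are descriptions over 8 points that share depth and scaling within a library. By the same measure the genes outside the 10 most like Hspa5 were Dvl2 (r = 0.98), Snu13 (r = 0.97), Apbb1ip (r = 0.97), Srf (r = 0.96) and Cryz (r = 0.96), which are the extremes of all genes tested.

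**Figure D3:**
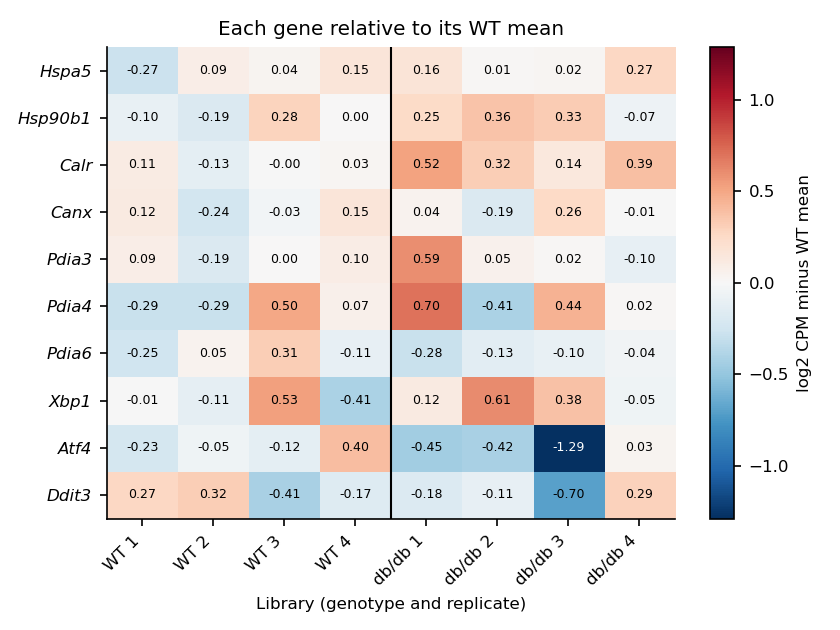
Heat map of log2 CPM of the 10 genes (rows) in the 8 libraries (columns), each as a difference from the WT mean of its gene. The darkest decreases stand in db/db replicate 3, where Atf4 was at -1.29 and Ddit3 at -0.70, and no column has 1 colour throughout.

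The wider pathway was described with 8 lists of 143 genes, of which 124 could be tested. Of these 39 passed in edgeR (31.45%, against 27.7% of all genes and 31.3% of genes with a mean of at least 10 CPM), 26 higher and 13 lower in db/db, so the share was about that of the background, and the median log2 difference was 0.03. The counts rest partly on single libraries, since the 26 higher genes became 17 without WT replicate 2 and 15 without WT replicate 4. With a score of skeletal muscle genes in the model 2 genes of the lists passed, both lower: Herpud1, which also passed without it, and P4ha1, which did not (adjusted p = 0.133 in edgeR). Fitted differences did not all shrink in that model, with Dnajc3 at -0.62 (-0.64 without the score) and Erp29 at 0.83 (0.66), while Serpinh1 was at 0.84 (1.33) and Ostc at 0.11 (0.70). That score did not overlap between the genotypes, so it and genotype cannot be told apart.

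**Figure D4:**
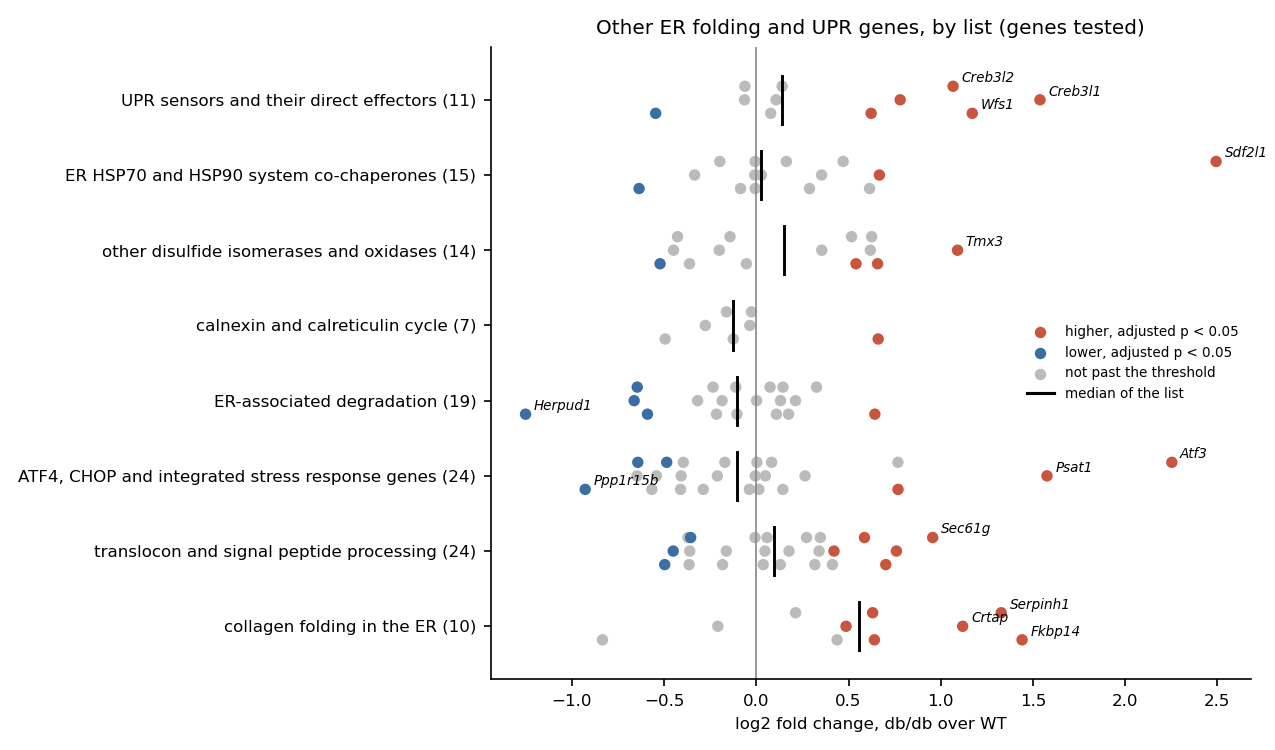
Fitted log2 fold change, db/db over WT, of the tested genes of each list (number in parentheses); red points passed higher, blue points passed lower and black bars are list medians. Collagen folding has the highest median, 0.56, and Herpud1 (-1.25) and Sdf2l1 (2.49) are the extremes. Sdf2l1 was close to the floor in WT and passed the filter through its db/db counts alone.

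Among the sensors and their direct effectors, 5 of 11 were higher and 1 lower, against 15.8% higher and 11.9% lower among all genes, with a median of 0.14. Ern1, the gene of IRE1, was at 3.8 to 7.89 CPM in WT and 3.72 to 7.98 in db/db, with a difference of -0.06 on the log2 scale (SE 0.37, adjusted p = 0.921 in edgeR). Eif2ak3, the gene of PERK, was at 0.405, 6.33, 3.76 and 5.94 CPM in WT and 5.72, 4.14, 2.66 and 4.84 CPM in db/db (0.11, SE 0.51, adjusted p = 0.904 in edgeR). The 95% intervals ran from -0.84 to 0.71 for Ern1 and from -0.96 to 1.18 for Eif2ak3, and neither leaves out a change in either direction. Atf6 passed narrowly, at 6.75 to 12.4 CPM in WT and 10.8 to 22.3 in db/db (0.78, SE 0.28, adjusted p = 0.048 in edgeR), and failed under 16 of 19 alternatives, 0.0573 in DESeq2 among them. Leaving out any library but WT replicate 3 and db/db replicate 1 lost the call, with the adjusted p at up to 0.178 without db/db replicate 2. Creb3l1 and Creb3l2, relatives of ATF6 that are also cut from the membrane, rose. Creb3l1 was at 5.67, 3.38, 3.76 and 2.97 CPM in WT and 17.4, 8.91, 11.1 and 8.56 CPM in db/db (1.54, SE 0.35, adjusted p = 0.00328 in edgeR), with no overlap. Creb3l2 (1.07, SE 0.33, adjusted p = 0.0228 in edgeR) lost its call without WT replicate 3 (0.0751), without WT replicate 4 (0.0746) or without db/db replicate 2 (0.0887). Eif2s1, the translation factor subunit that PERK phosphorylates, fell from 39.6 ± 2.87 to 27.1 ± 2.33 CPM (SD, n = 4; -0.55, SE 0.16, adjusted p = 0.0176 in edgeR).

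Of the 15 co-chaperones 2 were higher and 1 lower (3 of 15, against 27.7% of all genes), with a median of 0.03. Sdf2l1, a partner of BiP and its J-proteins, was at 1.21, 0.422, 1.88 and 0.849 CPM in WT, or 1 to 5 counts, and at 10.2, 4.45, 5.76 and 5.21 CPM in db/db, or 13 to 34 counts. Its groups did not overlap (2.49 on the log2 scale, SE 0.50, adjusted p = 0.00109 in edgeR), but the WT level is close to the floor of 3 counts, which makes the size of the difference imprecise. All its WT counts were under the 10 counts of the filter. Sdf2l1 therefore came into the test through the db/db libraries alone, and its p-value is given as a description only. Dnajc3, which encodes the BiP co-chaperone and PERK inhibitor p58IPK, went the other way. It was at 94.7, 81.9, 88.3 and 87 CPM in WT and at 61.7, 59.8, 47.9 and 56.5 CPM in db/db, without overlap (-0.64, SE 0.14, adjusted p = 0.00197 in edgeR). Its promoter window holds an ERSE, as those of Hspa5 and Calr do, printed for comparison with theirs.
Dnajc3, chr14:118937827-118937845, plus strand: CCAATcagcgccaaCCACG

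Dnajc10, a J-protein with reductase activity, rose (0.67, SE 0.22, adjusted p = 0.0322 in edgeR), but leaving out any of 5 single libraries (WT replicates 2, 3 and 4 and db/db replicates 1 and 3) took the adjusted p to between 0.0618 and 0.102, and scaling by library totals alone took it to 0.0557. Of the 14 other isomerases and oxidases tested 3 were higher and 1 lower (28.6%, against 27.7%), with a median of 0.15. Erp29, an isomerase-like folding factor, rose from 50.7 ± 8.84 to 80.1 ± 7.22 CPM (0.66, SE 0.15, adjusted p = 0.00368 in edgeR), and the membrane-bound thioredoxins Tmx3 and Tmx2 went in opposite directions (1.09, adjusted p = 0.0043, and -0.52, adjusted p = 0.0141). All 3 share exon bases with other genes and are uncertain to that degree. In the calnexin and calreticulin cycle 1 of 7 passed, the export receptor subunit Mcfd2 (0.66, SE 0.19, adjusted p = 0.0152 in edgeR, but 0.0557 without WT replicate 1 and 0.0502 without db/db replicate 3), and the median was -0.12.

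ER-associated degradation, which returns misfolded proteins to the proteasome, had 4 genes lower and 1 higher of 19, with a median of -0.10. The share that passed, 26.3%, was close to the 27.7% of all genes. Herpud1, a membrane scaffold of the degradation complex and a much used target gene of the UPR, showed the greatest decrease of all 8 lists. It was at 151, 199, 128 and 143 CPM in WT and at 57.5, 74.1, 59.8 and 69.2 CPM in db/db, so that the highest db/db library lay well under the lowest WT library. The difference was -1.25 on the log2 scale (SE 0.16, interval -1.58 to -0.92, adjusted p = 1.32e-05 in edgeR), or 0.42-fold, and it passed under all 19 alternatives. Its promoter window holds the shorter ERSE-II, printed with its fixed letters in capitals.
Herpud1, chr8:94386377-94386387, plus strand: ATTGGgCCACG

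Selenos, a selenoprotein of the same machinery, fell from 112 ± 11.8 to 74.4 ± 8.26 CPM (-0.59, SE 0.14, adjusted p = 0.00372 in edgeR). Os9, a lectin that hands glycoproteins to the degradation complex, rose from 36.7 ± 3.4 to 57.3 ± 8.94 CPM (0.64, SE 0.16, adjusted p = 0.00601 in edgeR). The other genes of the list that fell were Derl2 and Aup1, which share exon bases with neighbouring genes and are named after their values were seen.

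Of 24 genes tested of the ATF4, CHOP and integrated stress response list, which holds targets and kinases of eIF2alpha, 3 were higher and 3 lower (25.0%, against 27.7% of all genes), with a median of -0.10. A further 6 of the list were too low to be tested, and their counts are given without a test. Gdf15, a secreted stress factor, had 0, 2, 0 and 0 counts in WT and 9, 10, 5 and 17 in db/db, and Stc2, a secreted glycoprotein, 0 counts in all WT libraries and 10, 4, 9 and 5 in db/db. Phgdh, of serine synthesis, had 0 to 2 and 5 to 8 counts and Slc7a5, an amino acid carrier, 0 to 2 and 3 to 5. Slc7a11 was at 0 counts in all libraries and Fgf21 at 0 in all but db/db replicate 4, which had 1. Ppp1r15b, the constitutive partner of the phosphatase that restores eIF2alpha, was at 40.9, 57, 50.7 and 48.4 CPM in WT and 17.4, 34, 28.8 and 23.4 CPM in db/db (-0.93, SE 0.20, adjusted p = 0.00204 in edgeR), with Gm26616 overlapping it. Vldlr, a lipoprotein receptor, fell from 127 ± 12.3 to 90.8 ± 8.65 CPM (-0.49, SE 0.13, adjusted p = 0.0109 in edgeR). Atf3, a stress-induced factor, was at 0, 3.38, 2.25 and 4.67 CPM in WT and 10.2, 10.5, 2.22 and 26 CPM in db/db. One db/db library lay within the WT range and another far above the rest, and the call (2.25, SE 0.64, adjusted p = 0.0136 in edgeR) was lost without db/db replicate 4 (0.076), in DESeq2 (0.0788) and in limma-voom (0.0636).

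In the translocon and signal peptide list 5 of 24 were higher and 3 lower (33.3%, against 27.7% of all genes), with a median of 0.09. Sec61b, a small subunit of the channel, rose from 28.6 ± 8.22 to 48.5 ± 5.94 CPM (0.76, SE 0.20, adjusted p = 0.00846 in edgeR), and Ostc, a subunit of an oligosaccharyltransferase, from 21.9 ± 3.36 to 35.6 ± 7.89 CPM (0.70, SE 0.20, adjusted p = 0.0132 in edgeR, 0.0622 without db/db replicate 1). Stt3b, a catalytic subunit of oligosaccharyltransferase, fell from 90.7 ± 12.5 to 64.3 ± 2.96 CPM (-0.50, SE 0.14, adjusted p = 0.013 in edgeR).

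Collagen folding had the largest share of passing genes of the 8 lists, 6 of 10 (60.0%, against 27.7% of all genes), all higher (15.8% of all genes), with a median of 0.56. The other 6 genes of this list were too low to be tested. Serpinh1, the collagen chaperone HSP47, was at 15, 26.6, 31.2 and 28 CPM in WT and 75.5, 74.1, 52.3 and 50.6 CPM in db/db. No library of one group reached the other, and the difference was 1.33 on the log2 scale (SE 0.21, adjusted p = 0.000167 in edgeR). Ppib, a prolyl isomerase of the ER, rose from 37.4 ± 4.86 to 58.1 ± 7.89 CPM (0.63, SE 0.16, adjusted p = 0.00709 in edgeR, with Snx22 overlapping) and Fkbp9 from 54.6 ± 5.89 to 76.4 ± 5.11 CPM (0.49, SE 0.14, adjusted p = 0.0143 in edgeR, but 0.0528 with every gene of at least 1 count tested). Fibroblast and matrix markers moved with this list: Col1a1 was at 96.3 ± 8.07 CPM in WT and 265.5 ± 114 in db/db (1.47, adjusted p = 8.72e-05 in edgeR), and their part in the list was not tested.

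**Figure D5:**
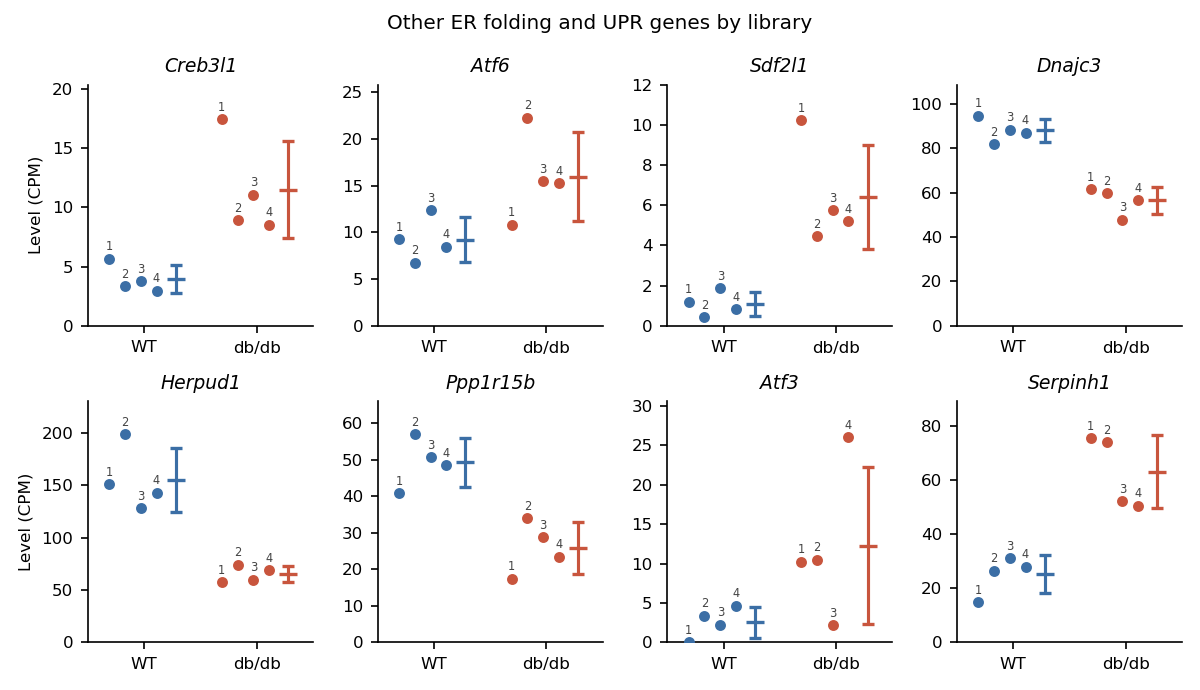
Level of 8 genes of the wider pathway in each library, in CPM on a linear axis from 0. Numbered points are libraries (WT blue, db/db red), and the bar beside each group is its mean ± SD (n = 4). Herpud1, Dnajc3 and Ppp1r15b lie lower in all db/db libraries than in any WT library, Serpinh1 and Creb3l1 lie higher, and in Atf3 the groups overlap.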

How the data were processed

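The authors extracted total RNA from BAT, had single-end mRNA libraries made by a commercial service and deposited raw counts per Ensembl gene for 8 samples. The methods name bbduk, STAR on mm10, HTSeq-count and DESeq2, whereas the submitters' processing notes name Trimmomatic, HISAT2 and DESeq2 with GRCm38 and mm10, and the alignment behind the counts was not settled. Use of strand or of molecular identifiers is not given in the sources used here, so PCR copies may be counted and intervals cover the spread between libraries only. The authors also deposited normalized log2 values, used for 1 alternative, which equal log2 of the count over the DESeq2 size factor plus 1.

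Groups came from the sample titles. Of 31053 identifiers 31011 matched GENCODE M21 on GRCm38, and the other 42 held at most 0.00213% of a library's counts. Counts were filtered (filterByExpr, at least 10 counts and 15 in total), scaled by TMM and tested by genotype with edgeR 4.0.16 in R 4.3.3 (quasi-likelihood F test, adjusted p under 0.05), after tests on simulated data. Alternatives used DESeq2 1.42.0, limma 3.58.1, other scalings and filters, a replicate block, a muscle score and leaving out each library. CPM use TMM-scaled library sizes.

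The 10 genes, the lists and the tests were chosen with earlier results of these data known. Beside the 10 genes and the sensors Ern1, Eif2ak3 and Atf6, the text names the 3 genes of each list with the smallest p, the 5 genes most like Hspa5 and marker genes chosen by cell type. Of the lists, Ganab and Calr3 were also named by that rule without passing, with log2 differences of -0.28 and -0.49. Brown adipocyte markers summed to 14920 to 21020.0 CPM in WT and 16500 to 22210.0 in db/db. Of 9 tested, 2 were higher and 4 lower, against 15.8% and 11.9% of all genes. Plasma and B cell markers summed to 6.88 to 13.5 and 17.7 to 89.3 CPM, with 1 of 10 tested and higher. Among these, Cd79a, Ms4a1 and Tnfrsf17 were at 0 in WT and Cd79a at 0 in db/db.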

Additional observations from a re-analysis of the deposited data

Results flagged for a closer look

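Ganab, the glucosidase subunit that admits glycoproteins to the calnexin cycle, stood apart in WT replicate 1, at 36.4 CPM (90 counts) beside 49.8 to 52.2 CPM in the other WT libraries. The gap to the nearest library exceeded the 95% critical value of Dixon's test for 4 samples. Of 74 such groups of 4 libraries examined over the 10 genes and the list genes named by the rule for named genes, 1 was picked out, and about 3.7 would be by chance.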

How the results depend on the processing

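None of the 10 genes passed in the reported fit, and 1 did in 4 alternatives: Calr in limma-voom (adjusted p = 0.0479) and with at least 10 counts in every sample (0.0263), Atf4 with every gene of at least 1 count tested (0.00632) and in the replicate block (0.0259). Leaving out single libraries gave 0 to 1 of the 10, 26 to 33 of the 8 lists (15 to 21 higher and 10 to 14 lower) and 2236 to 2483 of all genes (1281 to 1435 higher and 889 to 1056 lower); Calr passed without db/db replicate 3 and Atf4 without db/db replicate 4. With the skeletal muscle score as covariate 582 genes passed (431 higher and 151 lower), none of the 10, and in the lists 2, 0 higher and 2 lower (Herpud1, -1.10, and P4ha1, -2.14, which had not passed without the score); signs turned for Hspa5 (-0.014), Canx (-0.058), Pdia3 (-0.26), Pdia4 (-0.46), Ddit3 (0.23) and Eif2ak3 (-0.82). That setting raised the share of higher genes among all calls from 57.1% to 74.1%. Canx also turned with library totals alone (-0.00155), with every gene of at least 1 count (-0.022) and on the authors' log2 values (-0.00723). Without single libraries Canx ran from -0.061 to 0.092, Pdia3 from -0.020 to 0.25, Pdia4 from -0.0096 to 0.41, Ern1 from -0.25 to 0.10 and Eif2ak3 from -0.29 to 0.37. The causes were not tested. Filters moved the count over all genes between 2018 and 3170. The replicate block called 2557 genes and 38 of the lists and took away the call of Atf6. Same-numbered mice deviated together with r between -0.08 and 0.05. For WT replicates 1 and 2 the db/db library of the same number gave the highest r, and for replicates 3 and 4 another did. These values cannot settle whether the numbers pair the mice. Pdia4 had 24 to 69 counts per library, the fewest of the 10.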

Other observations

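The ERSE letters were found in the windows of 37 genes, of which 12 could be tested: the 5 of the 10 genes described above and 7 others. None of the 12 passed higher, 2 passed lower in edgeR (Dnajc3 and Acacb) and 10 did not pass, against 15.8% higher and 11.9% lower among all genes, with a median log2 difference of -0.10 beside 0.01 over all genes. Acacb, the mitochondrial acetyl-CoA carboxylase, was at -1.29 (SE 0.16; edgeR adjusted p = 1.03e-05) and was named after its values were seen. The ERSE-II letters stood in 12 genes, of which 8 were tested, 3 higher (Nucb1, Lgalsl and Krtcap2), 2 lower (Herpud1 and Rcl1) and 3 not passing. These counts are descriptions of genes that share letters in a promoter window and were not tested against other genes.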
